A study of Mus musculus with 19 samples.

Results

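Stefins and WAP-domain protease inhibitors were measured in the lungs of mice dosed with a mixture of 8 polycyclic aromatic hydrocarbons. The members are 8 genes, Stfa1, Stfa2, Stfa3, Stfa2l1, Wfdc17, Wfdc2, Wfdc1 and Slpi, and every probe whose RefSeq accession belongs to those symbols was taken. This gave 9 of the 55681 probes on the array, with 2 probes for Wfdc2 and 1 for every other gene, and all 9 were among the 30994 probes tested. The genes were chosen with their log2 ratios across the doses, and the step from D2 to D3, in view, so those values are a description.

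The mice were adult males of the MutaMouse, a transgenic strain made for mutation assays (on a BALB/C-DBA/2 background in the methods), aged about 12 weeks. All were gavaged daily for 28 consecutive days, and lung was taken 72 h after the last dose. D0 (5 mice) received olive oil only, and D1 (4 mice), D2 (5 mice) and D3 (4 mice) received the mixture in olive oil. The daily doses were 15 mg (D1), 30 mg (D2) and 60 mg (D3) of benzo[a]pyrene (BaP) equivalents per kg of body weight. Each array compared lung RNA (Cy5, red) with a reference RNA pooled from 11 mouse cell lines (Cy3, green), so every level is a log2 ratio of lung over reference, and every difference is between such ratios. No dyes were swapped. Mouse 35 of D3 had 2 arrays, which were averaged.

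Stefins are small cytosolic cystatins that occupy the active-site cleft of papain-like cysteine proteases such as cathepsins B, H, L and S. The mouse stefin A genes are tandem copies that are best known from neutrophils and other myeloid cells and from stratified epithelium. WAP-domain proteins carry a small fold held together by disulfide bonds, and several of them inhibit serine proteases. Slpi, secreted by airway epithelium and phagocytes, inhibits neutrophil elastase and cathepsin G. Wfdc2 is a product of airway epithelium, Wfdc17 is made by activated macrophages, and Wfdc1 is a secreted protein of stromal cells.

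The promoters of the 4 stefins are shown because these genes are near copies of which some were called and others were not, and that of Wfdc17 because it was the called member of the other family. RefSeq windows were at hand for 7 of the 8 members. Each sequence runs from 150 bases before the transcript start through the start and 20 bases in all from it, on build GRCm38.p6 (the array annotation is on mm9). The positions are chr16:36276998-36277167, plus strand, for Stfa1, chr16:36156661-36156830, plus strand, for Stfa2l1, chr16:36408344-36408513, minus strand, for Stfa2, chr16:36455373-36455542, minus strand, for Stfa3, and chr11:83703906-83704075, plus strand, for Wfdc17. Capitals mark the runs of at least 13 bases common to all 4 stefin stretches, which are 2 runs of 13 bases and 1 of 17 bases.
Stfa1: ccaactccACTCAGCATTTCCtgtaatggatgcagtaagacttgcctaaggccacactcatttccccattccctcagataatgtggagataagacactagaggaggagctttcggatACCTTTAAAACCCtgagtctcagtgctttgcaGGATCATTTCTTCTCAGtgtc
Stfa2l1: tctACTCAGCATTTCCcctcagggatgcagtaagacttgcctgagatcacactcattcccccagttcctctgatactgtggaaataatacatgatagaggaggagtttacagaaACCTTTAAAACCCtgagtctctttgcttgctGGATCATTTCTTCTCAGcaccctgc
Stfa2: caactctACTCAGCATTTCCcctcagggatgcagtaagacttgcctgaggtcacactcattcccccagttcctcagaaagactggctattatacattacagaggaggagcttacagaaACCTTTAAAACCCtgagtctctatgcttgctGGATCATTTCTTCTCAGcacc
Stfa3: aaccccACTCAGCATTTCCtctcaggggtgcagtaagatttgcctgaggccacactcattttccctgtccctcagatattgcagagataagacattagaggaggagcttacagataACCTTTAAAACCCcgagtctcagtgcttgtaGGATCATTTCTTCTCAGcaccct
Wfdc17: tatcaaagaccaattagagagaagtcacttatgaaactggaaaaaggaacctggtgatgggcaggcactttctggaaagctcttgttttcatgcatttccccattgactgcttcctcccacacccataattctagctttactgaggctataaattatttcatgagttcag
The run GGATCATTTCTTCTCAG lay across the start of all 4 stefins. It was found in the windows (250 bases before the start and 50 after it) of 6 of 27025 genes (0.0222%), which were the 4 members, Csta3 and Cstdc5. The run ACTCAGCATTTCC was found in 10 genes (0.037%) and the run ACCTTTAAAACCC in 9 genes (0.0333%). Over the whole windows, Stfa2l1 and Stfa2 shared 90.5% of aligned positions, Stfa1 and Stfa2l1 79.2%, and Stfa1 and Stfa3 81.1%. The Stfa1 window was closest to that of Cstdc5 (83.8%), and Wfdc17 shared 48.6% to 51.5% with the stefin members and 49.9% with Slpi. The core of the dioxin response element bound by the aryl hydrocarbon receptor AHR (GCGTG, both strands) was found in the windows of Stfa3 and Wfdc2, against 35.2% of all genes. The PU.1 core (GAGGAA, both strands) was found in all 4 stefins and in Wfdc17, against 31.3% of all genes, and in Stfa3 it overlapped the run ACTCAGCATTTCC. The C/EBP palindrome (TTGCNNAA) was found in Stfa1 and Slpi (12.2% of all genes) and the AP-1 element (TGANTCA) in Stfa3 (8.97%). These matches are a description of letters in a window.

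The arrays lay on 3 slides of 8, 7 and 4 arrays, each with all 4 groups. Groups D0 to D3 took the same 4 columns of each slide in turn, so the effect of a column cannot be told apart from that of a dose. Between 54.5% and 64.7% of spots were well above background in red, and no spot was saturated. The lung markers Sftpc (surfactant protein C) and Scgb1a1 (club cell secretoglobin) had mean log2 ratios of 7.35 to 7.73 and 7.60 to 8.06 in the 4 groups. The array labelled D2 Mouse 23 has an animal number that falls among those of D1 and was kept in D2 as labelled, although the group sizes of the methods would also place it in D1. P-values measure the spread between mice.

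Of the 9 member probes, 3 were higher in D3 than in D0 past both thresholds of a call (limma adjusted p of at most 0.05 and at least 1.5-fold), namely Stfa1, Stfa2l1 and Wfdc17. In that comparison 2.43% of all tested probes were called in either direction and 1.2% were called higher. Between D3 and D2, 2 member probes were called, Stfa1 and Wfdc17, both higher, against 0.106% of all probes (0.0936% higher), and neither was called with mouse 23 placed in D1 or with median centring. None was called in D1 or D2 against D0, where 1.06% and 0.629% of all probes were called. Between D2 and D1 limma called 0 of 30994 probes (3047 had an unadjusted p under 0.05). The median log2 difference of the 9 probes was 0.19 in D1, 0.06 in D2 and 0.34 in D3 against D0, and 0.62 in D3 against D2. Over all tested probes these medians lay between -0.01 and 0.01. The groups did not overlap for 1 member probe in D1 (Wfdc1), 1 in D2 (Stfa1) and 3 in D3 against D0, 0 in D2 against D1 and 2 in D3 against D2. Over all probes the share without overlap was 8.91%, 4.1%, 14.6%, 2.09% and 3.64%. These comparisons share their D0 or D2 mice, and since the members were chosen on such values, nothing is read from their share.

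**Figure D1:**
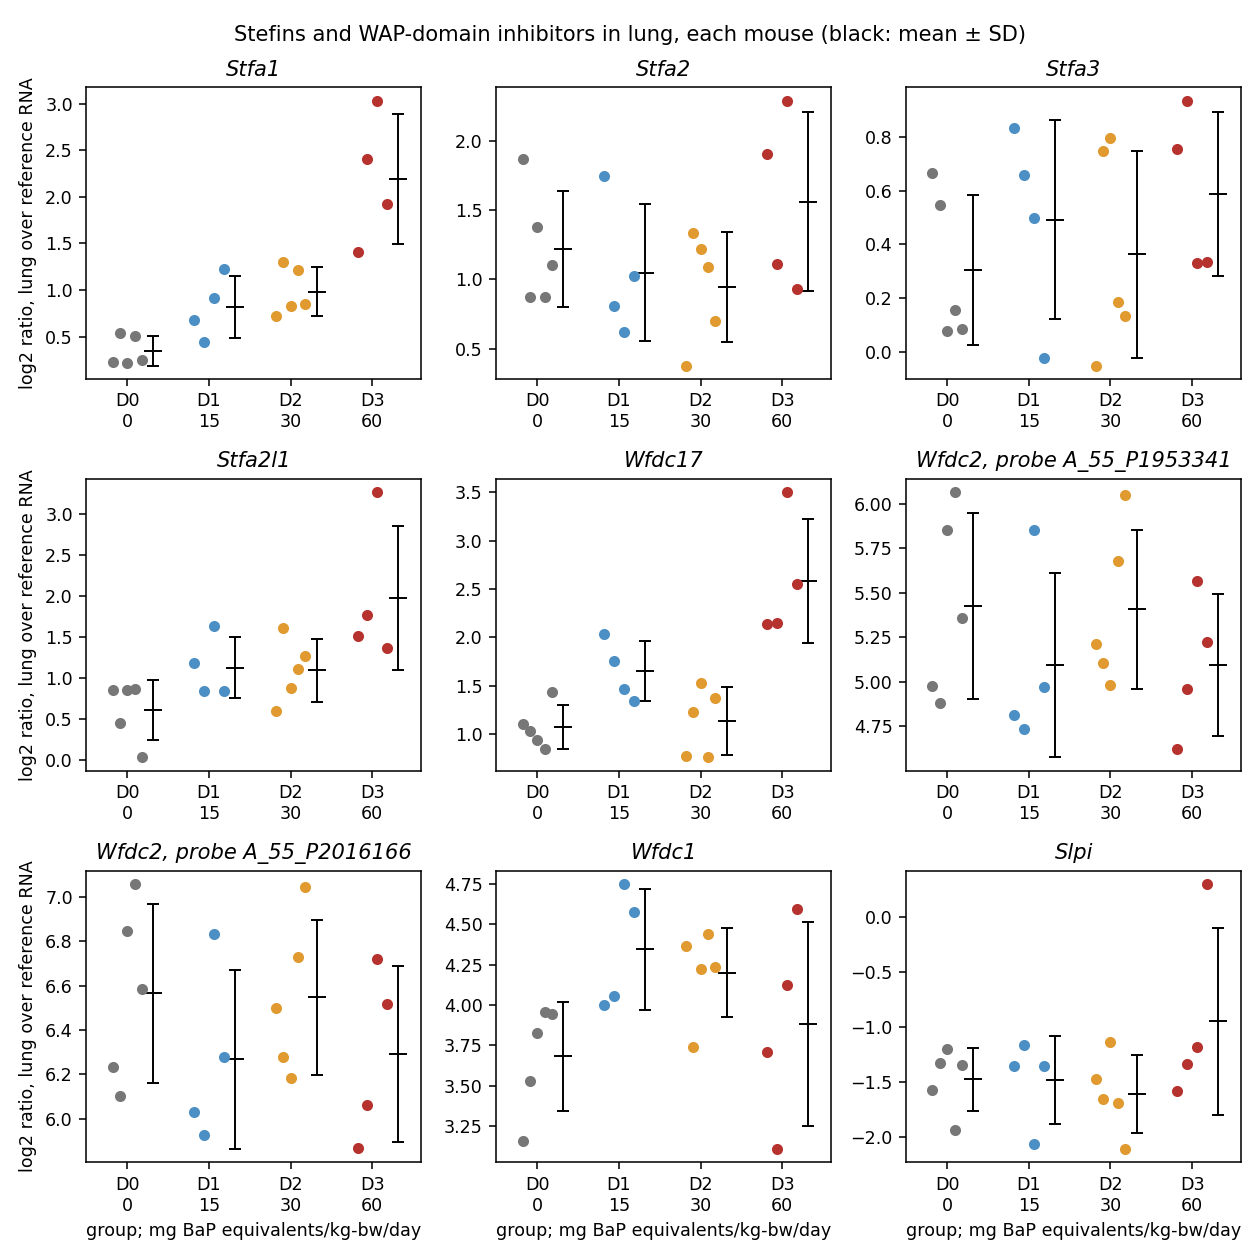
Log2 ratio of lung over reference RNA (vertical axis, a separate scale in each panel) for the 9 member probes in each mouse by group and dose (horizontal axis), with the group mean ± SD in black. The D3 mice lay above all D0 and D2 mice for Stfa1 and Wfdc17, above all D0 mice for Stfa2l1, and overlapped with the other groups for the remaining probes.

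Stfa1 (NM_001082543), a stefin A copy, had log2 ratios of 0.23, 0.53, 0.21, 0.50 and 0.25 in D0 and of 0.68, 0.45, 0.91 and 1.23 in D1. The D2 mice had 1.30, 0.83, 1.22, 0.85 and 0.72. The D3 mice had 1.40, 2.40, 3.03 and 1.92. No D2 mouse and no D3 mouse fell among the D0 mice, and the D3 mice did not overlap with D2, while D1 overlapped with D0 and D2. The order of the means was D0, D1, D2, D3, at 0.35 ± 0.16 (SD, n = 5), 0.81 ± 0.33 (n = 4), 0.98 ± 0.26 (n = 5) and 2.19 ± 0.70 (n = 4). D1 and D2 differed by less than their spread (0.17 ± 0.23, SE). The difference from D0 was 1.84 ± 0.23 (SE) in D3, a 3.59-fold change, and that between D3 and D2 was 1.21 ± 0.23. Within slides 1, 2 and 3 the D3 difference from D0 was 1.52, 2.23 and 1.45, and that from D2 was 0.84, 1.56 and 0.98.

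The Stfa1 signal was close to background in the lower groups. Its red signal was 100 to 123.5 in D0 and 193 to 866 in D3, and the probe was well above background in 4 of 5 D0 mice, 3 of 4 D1 mice and all mice of D2 and D3. The reference signal was between 50.5 and 68 on every array. Background was not subtracted, as in the methods. With the scanner software's background-subtracted signals the difference of D3 from D0 was 3.63, and that between D3 and D2 was 2.13, which was not called. The call of Stfa1 between D3 and D2 was present in 10 of the 18 fits that left out 1 mouse, and the difference was 0.93 without mouse 34.

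Stfa2l1 (NM_173869), a stefin A2-like copy, had log2 ratios of 0.86, 0.45, 0.86, 0.87 and 0.04 in D0. In D3 they were 1.52, 1.77, 3.27 and 1.37. All 4 D3 mice lay above all D0 mice, and mouse 34 stood well above the other D3 mice. D1 (0.84 to 1.63) and D2 (0.60 to 1.61) overlapped with each other and with D3. The means were 0.62 ± 0.37 in D0, 1.13 ± 0.37 in D1, 1.10 ± 0.38 in D2 and 1.98 ± 0.88 in D3 (SD), and D1 and D2 differed by less than their spread. The difference from D0 was 0.51 ± 0.31 (SE) in D1, 0.48 ± 0.29 in D2 and 1.36 ± 0.31 in D3 (2.57-fold). The D3 call was lost with median centring, where the difference was 1.35. With background-subtracted signals the D3 difference was 2.45 from D0 and 1.41 from D2. The D3 value was 0.93 without mouse 34 and lay between 0.99 and 1.44 within the 3 slides. The difference between D3 and D2 was 0.88 ± 0.31, which was not past the threshold, and it was 0.45 without mouse 34.

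Stfa2 (NM_001082545) and Stfa3 (NM_025288), the other stefin copies, overlapped between all groups. Stfa2 ranged from 0.87 to 1.87 in D0, 0.62 to 1.75 in D1, 0.38 to 1.34 in D2 and 0.93 to 2.29 in D3. Its highest mouse was again mouse 34. The D3 mean differed from D0 by 0.34 ± 0.29 (SE) and from D2 by 0.62 ± 0.29, and without mouse 34 by 0.10 and 0.37. Within slide 3 the difference of D3 from D0 was -0.34. Stfa3 ranged from 0.08 to 0.67 in D0 and from 0.33 to 0.94 in D3, with a difference of 0.28 ± 0.20. Its ratios followed the slide more than the dose, at 0.55 to 0.94 on slide 1, 0.08 to 0.50 on slide 2 and -0.05 to 0.29 on slide 3. The 4 neighbouring group means of Stfa2 and of Stfa3 differed by less than the spread between mice. The stefin copies are close in sequence and the probe letters were not at hand, so how far each probe reads its own copy is uncertain.

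Wfdc17 (NM_001081957), the macrophage WAP protein, had log2 ratios of 1.10, 1.04, 0.94, 0.84 and 1.44 in D0 and of 2.04, 1.76, 1.46 and 1.35 in D1. In D2 they were 1.23, 1.53, 0.76, 1.37 and 0.78. In D3 they were 2.14, 2.15, 3.50 and 2.56. The D3 mice lay above every other mouse, D2 spanned the D0 mice, and D1 overlapped with both. The order of the means was D0 (1.07 ± 0.23, SD), D2 (1.14 ± 0.35), D1 (1.65 ± 0.31) and D3 (2.59 ± 0.64), and D0 and D2 differed by 0.06 ± 0.22 (SE). The D3 difference was 1.51 ± 0.23 from D0, a 2.86-fold change, and 1.45 ± 0.23 from D2. Within slides 1, 2 and 3 the difference from D2 was 0.76, 1.99 and 1.72. The call between D3 and D2 was present in all 18 fits that left out 1 mouse, and it was lost with mouse 23 placed in D1 (1.36) and with median centring (1.34). The probe was well above background in every mouse.

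Wfdc1 (NM_023395), the stromal WAP protein, had its highest mean in D1, within the spread of D2. Its log2 ratios were 3.16, 3.53, 3.83, 3.95 and 3.94 in D0 and 4.00, 4.06, 4.75 and 4.57 in D1. In D2 they were 3.74, 4.22, 4.44, 4.24 and 4.36, and in D3 3.71, 3.11, 4.12 and 4.59. All D1 mice lay just above all D0 mice, while D2 and D3 overlapped with D0. The order of the means was D0 (3.68 ± 0.34, SD), D3 (3.88 ± 0.63), D2 (4.20 ± 0.27) and D1 (4.34 ± 0.37), and neighbours in that order differed by less than their spread. The difference of D1 from D0 was 0.66 ± 0.24 (SE), not past the thresholds, and it was positive within all 3 slides (0.68, 0.86 and 0.63). With slide as a block it was 0.72 and with the red channel alone 0.84, both past the thresholds, and with processed signals it was 0.31. The difference of D3 from D0 was 0.20 ± 0.24 and changed sign with processed signals (-0.18) and without mouse 35 (-0.04), while it was past the thresholds with the red channel alone (0.64).

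Slpi (NM_011414), the elastase inhibitor, had a lower signal in lung than in the reference in all but 1 mouse. Its log2 ratios lay between -1.93 and -1.20 in D0, -2.06 and -1.16 in D1 and -2.11 and -1.13 in D2. In D3 they were -1.58, -1.34, -1.18 and 0.30. The exception was mouse 35, which was high on both of its arrays (0.23 and 0.37). The D3 difference from D0 was 0.53 ± 0.29 (SE) with mouse 35 and 0.11 without it, and that from D2 was 0.66 ± 0.29 with it and 0.24 without it. Within slide 1, which held no array of mouse 35, D3 and D2 differed by -0.07.

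Wfdc2 (HE4), the airway epithelial WAP protein, had log2 ratios that overlapped between all groups on both probes. The probe A_55_P1953341 had means of 5.43, 5.09, 5.41 and 5.09 in D0 to D3, and the probe A_55_P2016166 of 6.57, 6.27, 6.55 and 6.29. The D3 difference from D0 was -0.33 ± 0.28 (SE) on the former and -0.27 ± 0.23 on the latter, so the probes ran alike. Slide moved them more than dose. On the probe A_55_P1953341 slide 1 ran from 4.62 to 5.11 and slide 2 from 5.57 to 6.07, with no overlap.

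**Figure D2:**
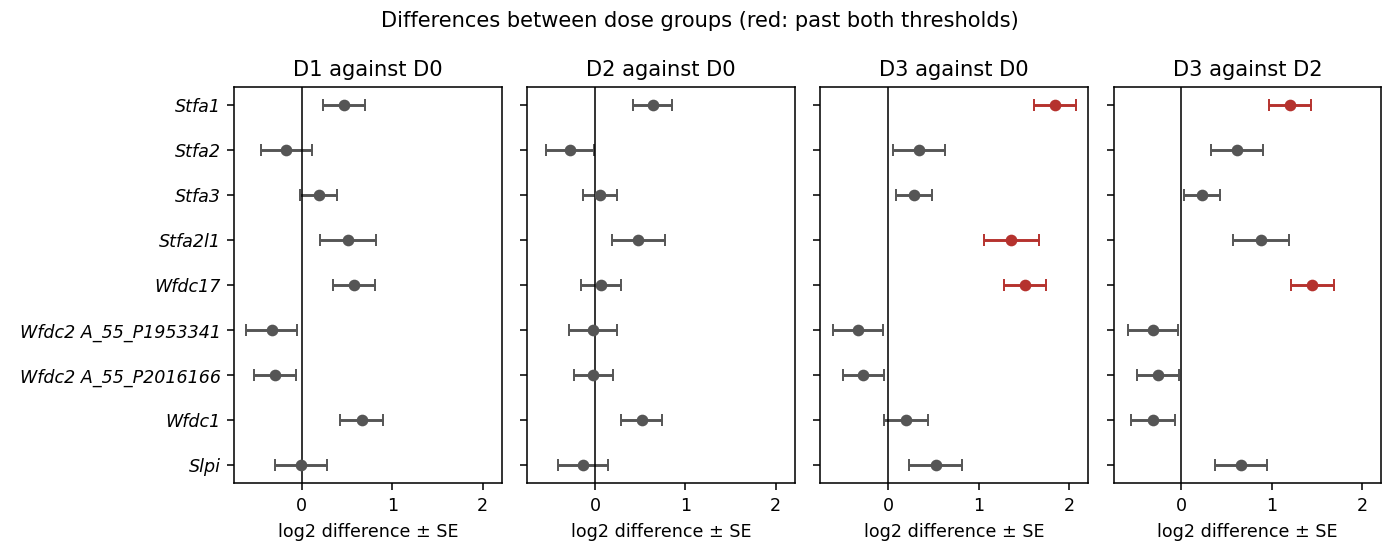
Log2 difference between group means ± SE (horizontal axis) for the 9 member probes (vertical axis) in 4 comparisons, with probes past both thresholds in red. Stfa1, Stfa2l1 and Wfdc17 stood at 1.84, 1.36 and 1.51 in D3 against D0, and the other probes lay between -0.33 and 0.53.

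At the lowest dose none of the 9 probes was called, although Wfdc1, whose difference was the largest of the 9 (0.66), was called with slide as a block and with the red channel alone. The D1 difference of Wfdc17 from D0 was 0.58 ± 0.23 (SE), with all 4 mice above the D0 mean, but it was -0.09 within slide 3. Stfa1 differed by 0.47 ± 0.23 and Stfa2l1 by 0.51 ± 0.31, and these and Wfdc17 (1.49-fold) were under 1.5-fold. Stfa2 (-0.17 ± 0.29), Stfa3 (0.19 ± 0.20), Slpi (-0.01 ± 0.29) and the Wfdc2 probes (-0.33 ± 0.28 and -0.30 ± 0.23) were under 1.5-fold as well.

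The 4 stefin members lie in a cluster on chromosome 16 that holds 12 protein-coding genes from Csta1 to Stfa3 in the annotation. The array had a probe for 6 of the other genes, of which 3 were tested. These neighbours were chosen by position, after the annotation was read. Cstdc5, a stefin A-like gene next to Cstdc6 and Gm7260, had log2 ratios of 0.20, 0.45, 0.00, 0.30 and 0.22 in D0 and of 1.17, 1.80, 2.40 and 1.48 in D3. It rose by 1.48 ± 0.19 (SE, limma adjusted p = 5.41e-05, higher in 4 of 4 mice) against D0. Its red signal in D0 was only 100 to 113, well above background in 4 of 5 mice. Against D2 Cstdc5 rose by 1.04 ± 0.19 (adjusted p = 0.0209), and no D3 mouse overlapped with D2. Cstdc4, next to Stfa2l1, rose by 1.23 ± 0.23 against D0 (adjusted p = 0.00215), with a D3 mouse 34 at 2.59 and the other 3 between 0.90 and 1.25, and its signal was well above background in 2 of 5 D0 mice. Csta2 differed by 0.35 ± 0.14 (adjusted p = 0.105). Csta1 was well above background in no mouse, Csta3 in 1 D3 mouse and Cstdc6 in 1 D0 mouse, so these copies had no measured level. Of the 7 tested genes of the cluster, 4 were thus called in D3 against D0, beside 2.43% of all probes, and Csta2, Stfa2 and Stfa3 were not. Cstdc4 was well above background in at least 4 mice only in D2 and in D3, and was tested through those groups. Among the 4 called genes, Stfa1 and Stfa2l1 are members chosen on such values. How far the probes of these close copies read separate transcripts is uncertain, so the count may not be one of separate genes.

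**Figure D3:**
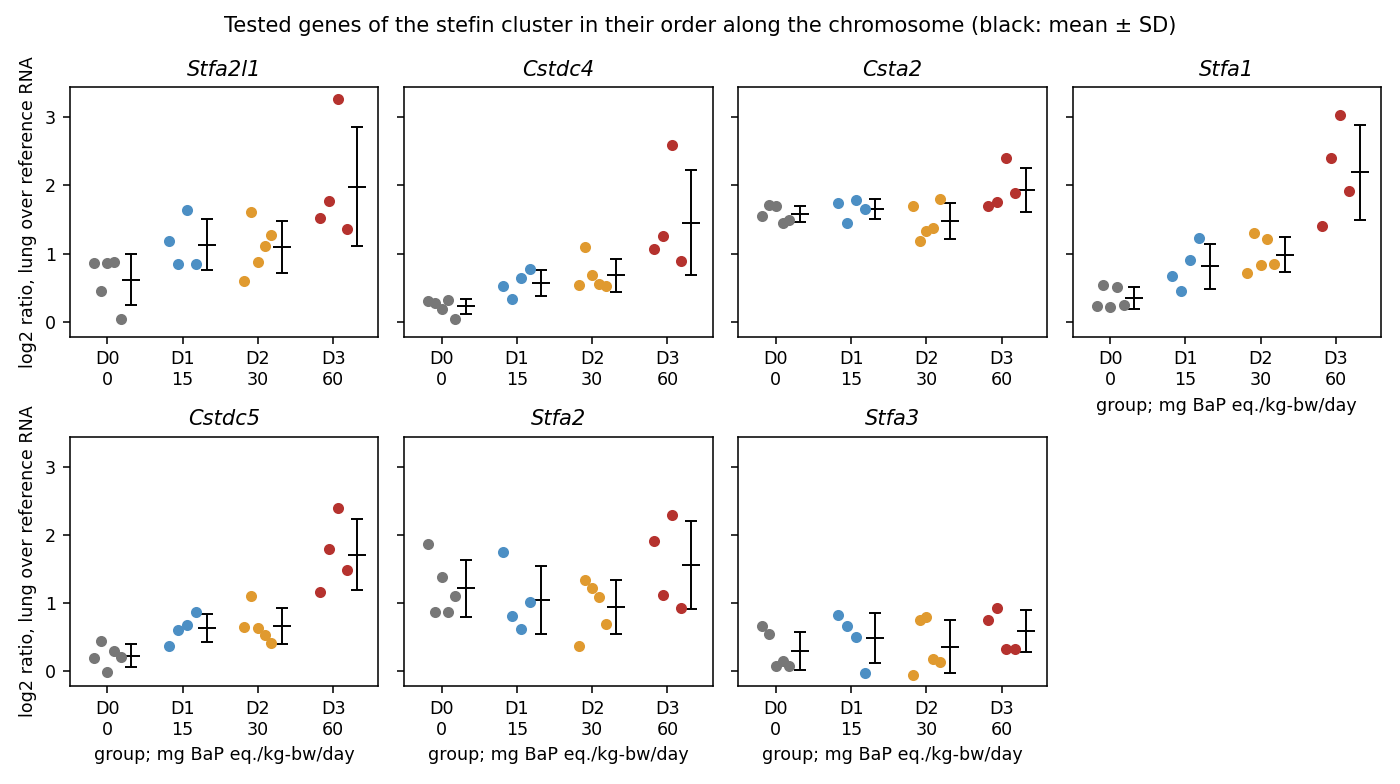
Log2 ratio of lung over reference RNA (vertical axis, shared) for the 7 tested genes of the stefin cluster, in their order along the chromosome, in each mouse by group and dose (horizontal axis), with mean ± SD in black. D3 mice stood above D0 for Stfa2l1, Cstdc4, Stfa1 and Cstdc5, and the highest D3 mouse of every panel but Stfa3 was mouse 34.

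Among the WAP-domain genes outside the members, 10 of 19 were tested, and 2 rose in D3 against D0. Wfdc21, which lies near Wfdc17 on chromosome 11, rose by 0.87 ± 0.15 (SE; limma adjusted p = 0.00131), from 2.83 to 3.28 in D0 to 3.75 to 4.20 in D3. Wfdc12, a WAP protein of epithelia, rose by 1.40 ± 0.26 (adjusted p = 0.00178). It stood at 0.78 to 1.47 in D0 and differed by 0.89 ± 0.26 in D1 (adjusted p = 0.0545) and 0.88 ± 0.25 in D2 (adjusted p = 0.0679), with no overlap of either group with D0. The median log2 difference of the 10 probes was -0.01 in D3.

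The list of other stefins and cystatins, which does not hold Cstdc5, had 9 tested genes, of which 2 were called in D3, Cstdc4 and Cst8. Cst8, a cystatin known from the reproductive tract, rose by 0.67 ± 0.15 in D2 (limma adjusted p = 0.0232) and 0.76 ± 0.16 in D3 (adjusted p = 0.00455). The 2 brightest genes of the list were not called. Cstb, the stefin B gene, differed by 0.08 ± 0.10 in D3 (adjusted p = 0.653) and Cst3, the secreted cystatin C, by -0.04 ± 0.13 (adjusted p = 0.880).

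Lists of cysteine and serine proteases were tested as well, which hold targets of these inhibitor families beside other proteases. Of 11 cysteine cathepsins and legumain, none was called in D3 against D0 by limma. The only call among them was Ctss (cathepsin S) in D2, which fell by 0.63 on the log2 scale (SE 0.16, limma adjusted p = 0.0432). Ctsf (cathepsin F) differed by 0.47 in D3 (adjusted p = 0.0479), higher in 4 of 4 mice without overlap but under 1.5-fold, and is named after its values were seen. Ctsb differed by 0.16 ± 0.09 in D3 (adjusted p = 0.254) and Ctsh by -0.10 ± 0.11 (adjusted p = 0.608). Of 7 tested granule serine proteases, Gzma, the granzyme of cytotoxic lymphocytes, fell by 1.60, 2.13 and 3.07 on the log2 scale in D1, D2 and D3 (SE 0.43, 0.40 and 0.43; adjusted p = 0.0365, 0.00741 and 0.000160). Tpsb2, a mast cell tryptase, differed by -0.43 ± 0.16 (adjusted p = 0.0790), and Elane, the neutrophil elastase that Slpi inhibits, by -0.13 ± 0.10 (adjusted p = 0.444).

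Serpins and Kunitz inhibitors, the other large inhibitor families, had 30 tested probes of 22 genes, and the calls in D3 were all higher. Serpina3n (0.72), Serpine2 (0.71) and Serpinb10 (0.75) rose in D3 (limma adjusted p = 0.0325, 0.00198 and 0.0196). Serpina3f rose in D1 (1.48, adjusted p = 0.0141) and differed by 0.45 in D3 (adjusted p = 0.424). Serping1 and Serpinb6a differed by 0.06 and 0.12 in D3 (adjusted p = 0.884 and 0.355).

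Neutrophil markers were measured in the same mice. Of 14 listed genes 12 were tested with 13 probes. By limma 3 probes were called higher in D1, 2 in D2 and 7 in D3 against D0, and none between D3 and D2, where 3623 of all probes had an unadjusted p under 0.05. S100a8, a calgranulin of neutrophils, rose by 1.77 ± 0.33 in D3 (limma adjusted p = 0.00179), Retnlg by 1.30 (adjusted p = 0.00847), Cxcr2 by 0.92 (adjusted p = 0.0108), S100a9 by 0.86 (adjusted p = 0.0290), Lcn2 by 0.81 (adjusted p = 0.0128) and Mmp9 by 0.68 (adjusted p = 0.0181). Mmp9 was well above background in 1 of 5 D0 mice and in all 4 D3 mice, so its difference rests on a control level mostly near background. Mmp8, a neutrophil collagenase, rose in all 3 doses, by 0.98, 0.97 and 1.49. Mpo (0.61, D1) and a dimmer probe of Camp (1.04 in D1 and 1.16 in D2) rose at the lower doses, but the brighter Camp probe was called in no comparison. Csf3r, a receptor of mature neutrophils, was lower in D3 by 0.46 on the log2 scale (adjusted p = 0.00641), under 1.5-fold. Ly6g had no matched probe and Fcnb was well above background in no mouse.

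The mean of the 12 neutrophil genes per mouse, as a log2 difference from the D0 mean, was -0.23 to 0.41 in D0, 0.35 to 0.79 in D1, 0.28 to 0.91 in D2 and 0.40 to 1.57 in D3. Mouse 34 held the highest value, as it did for Stfa1, Stfa2l1 and Wfdc17, and the other 3 D3 mice (0.40 to 0.56) lay within the range of D2. Over the 18 mice, which share a reference RNA and 3 slides, Pearson's r with this mean was 0.73 for Stfa1, 0.77 for Stfa2l1 and 0.60 for Wfdc17, and within groups 0.66, 0.65 and 0.42. Without mouse 34 it was 0.53, 0.54 and 0.26. A change in the number of cells of a type and a change in RNA per cell cannot be told apart in whole lung. The part of neutrophils in the member differences was not tested.

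**Figure D4:**
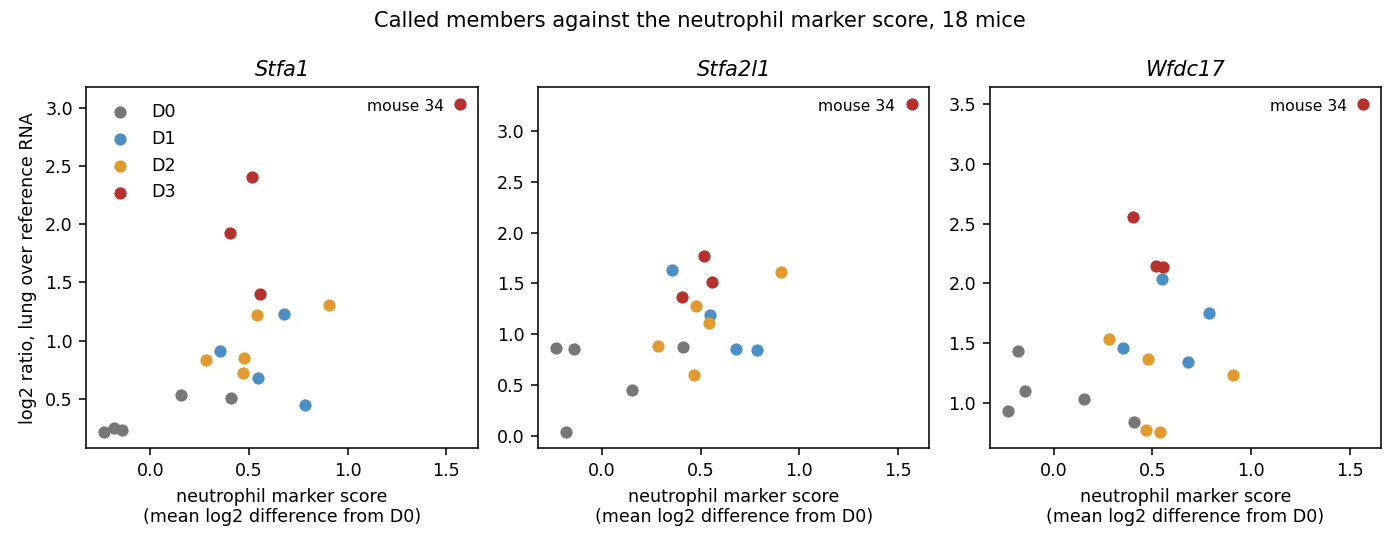
Log2 ratio of Stfa1, Stfa2l1 and Wfdc17 (vertical axes) against the mean log2 difference of 12 neutrophil genes from D0 (horizontal axis), 1 point for each of 18 mice, coloured by group. Mouse 34 lies at 1.57 on the horizontal axis. The other D3 mice lie at 0.40 to 0.56, within the range of D2, with higher Stfa1 and Wfdc17 than any D2 mouse.

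Of the other cell type lists, 3 of 12 alveolar macrophage probes were called in some comparison. Ear1 and Siglecf, alveolar macrophage genes, fell by 1.52 and 1.05 on the log2 scale in D2 (limma adjusted p = 0.0163 and 0.0358), and Krt79 fell by 1.40 in D3 against D0 (adjusted p = 3.66e-06) and by 0.93 against D2 (adjusted p = 0.00623). The mean of this list was -0.83 to -0.28 in D2 and -0.48 to -0.27 in D3, and -0.10 to 0.09 in D0, so every D2 and D3 mouse lay below every D0 mouse. Pearson's r of Wfdc17 over the 18 mice was -0.02 with this list (0.44 within groups). With the monocyte and interstitial macrophage list it was 0.07 (0.37 within groups). Marco and Chil3 differed by 0.94 (adjusted p = 0.0747) and -1.03 (adjusted p = 0.0964) in D3. No probe of the lists for monocytes and interstitial macrophages (11 tested), airway secretory cells (9), alveolar type 2 cells (8), smooth muscle and fibroblasts (9), squamous epithelium (7) or eosinophils and mast cells (4) was called by limma in any comparison. The part of these cells in the member values was not tested.

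The gene most like each member was named by Pearson's r over the 18 mice, among 14723 genes by their brightest probe, as a description. Stfa1 ran most closely with its neighbours Cstdc5 (r = 0.97) and Cstdc4 (0.93) and with Asprv1 (0.92), an aspartic protease of skin. Since the stefin copies are close in sequence, how far the probes of Stfa1, Stfa2l1, Cstdc5 and Cstdc4 read separate transcripts is uncertain. Stfa2l1 ran with Cstdc4 (0.93), S100a9 (0.91) and A530064D06Rik (0.91), and Wfdc17 with Sirt5 (0.85), A530064D06Rik (0.84) and Wfdc21 (0.84). Wfdc2 ran with Sftpd (0.98), Hba-a2 (0.97) and Scgb1a1 (0.97), genes of very bright probes. Its r was 0.90 with the alveolar type 2 list and 0.01 with the airway secretory list. Slide, which moved Wfdc2 more than dose did, was not taken out of these values. Slpi ran with Pyroxd2 (0.83), Timp1 (0.82) and Ccl7 (0.81), where Spearman's rho was 0.69, 0.47 and 0.55. Stfa3 ran with Hoxa9 (0.89), Dazap1 (0.88) and Glis1 (0.88), Stfa2 with Ctsa (0.74), Myo1f (0.72) and Rfesd (0.71), and Wfdc1 with Trnt1 (0.84), Hkdc1 (0.83) and Lmf1 (0.83). Among the members themselves r was 0.85 between Stfa1 and Stfa2l1, 0.77 between Stfa1 and Wfdc17 and 0.75 between Stfa2l1 and Wfdc17. Within groups these values were 0.67, 0.31 and 0.47, so the likeness of Stfa1 and Wfdc17 was smaller once the group means were taken out. Stfa1 and Stfa2 had an r of 0.34 and Stfa1 and Slpi 0.30.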

How the data were processed

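The authors deposited Agilent two-colour scanner files of 19 arrays, whose red and green intensity values carry no normalization beside the software's own processed signals, and a table of log2 ratios that they had normalized. Headers name the Feature Extraction software and build mm9. Median signals were normalized by loess within each array (span 0.3), without control and outlier spots, and replicate spots were averaged per probe. A probe was tested where red was well above background in at least 4 mice of 1 group (30994 probes). The Pearson r with the deposited log2 table was 0.995 to 0.998 per array. Of 28685 RefSeq-type probes, 27235 matched a symbol of GRCm38.p6. Differences came from a single model of all 4 groups fitted by limma 3.58.1 under R 4.3.3 (eBayes, Benjamini-Hochberg over all tested probes), since the MAANOVA of the methods was not installed; the fit was tested on simulated data. Promoters were aligned with Biopython 1.88 in Python 3.11.15. The members, the gene lists and the tests were chosen with earlier results of these data known, so no p is printed for a member and its calls are a description. Genes were named by rule: all members, the 3 most alike genes of each, and from each list the called genes and the 2 brightest. BC100530, BC117090 and Gm4758 matched no symbol of the gene table, and 1 called gene of the lists is not reported here. The alternatives covered background, normalization, filters, channel, slide, the arrays of mice 23 and 35, and leaving out each mouse. The number of arrays limits the precision.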

Additional observations from a re-analysis of the deposited data

Results flagged for a closer look

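The neutrophil marker mean of mouse 34 in D3 was 1.57, against 0.56 in the next highest of the 4 D3 mice, a gap of 0.87 of the group's range. The smooth muscle and fibroblast marker mean of mouse 23 in D2 was 0.51, against 0.05 in the next of the 5 mice (0.713 of the range). Both stood apart by Dixon's criterion at 95%, which chance meets in about 1 in 20 groups, and 68 groups of member probes and marker means were screened. No member probe was set apart in this way. The differences of Stfa1, Stfa2l1 and Wfdc17 between D3 and D0 without mouse 34 were 1.56, 0.93 and 1.21, and all 3 were still called. Between D3 and D2 without mouse 34 Wfdc17 was still called (1.15) and Stfa1 was not (0.93). Without the array of mouse 23, the call of Wfdc17 between D3 and D2 remained and that of Stfa1 did not.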

How the results depend on the processing

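The calls of Stfa1, Stfa2l1 and Wfdc17 in D3 against D0 remained in every fit that left out 1 mouse. They also remained under normexp, processed signals, the deposited table, no filter, red alone (where Wfdc1 was called as well) and the slide block. Exceptions were median centring, without Stfa2l1 (1.35), and the filter on all mice, which did not test Stfa1 and Stfa3. In D3 against D2, where 2 members were called, 1 (Wfdc17) was called with processed signals, the filter on all mice, red alone, without the array of mouse 23 and with the second array of mouse 35 alone, and 0 with median centring or with mouse 23 in D1. Leaving out each mouse gave 1 to 2 calls, with Stfa1 lost without D0 mice 3 or 5, D2 mice 29, 30 or 23, or D3 mice 32, 34 or 35. In D1 against D0, 1 member (Wfdc1) was called with red alone and with the slide block. The differences of the calls above in D3 kept their sign, except that of Wfdc1 in D3 against D0, called with red alone (0.64), which was -0.18 with processed signals and -0.04 without mouse 35. The cause was not tested.

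Calls among the other lists numbered 6, 8, 17 and 1 in D1, D2 and D3 against D0 and D3 against D2. They were 4 in D2 with processed signals, 0, 1, 5 and 0 with median centring, and 2 in D3 against D2 with the slide block. Leaving out each mouse gave 3 to 9 in D1 (3 without D0 mice 1 or 3 or D1 mice 22 or 25), 4 to 9 in D2 (4 or 5 without D0 mice 3 or 5 or D2 mouse 26), 14 to 19 in D3, 0 to 1 in D2 against D1 and 1 to 2 in D3 against D2 (the higher without D2 mouse 28). Pearson's r with the neutrophil mean ran from 0.53 to 0.80 for Stfa1, 0.54 to 0.81 for Stfa2l1 and 0.26 to 0.65 for Wfdc17, the lowest of each (0.53, 0.54 and 0.26) without mouse 34. Over all probes median centring moved the median difference to 0.17 in D1 and 0.12 in D2, and left 12, 18, 98 and 0 calls for 328, 195, 753 and 33, of which 12, 16 and 81 against D0 were higher, compared with 184, 135 and 372. Processed signals gave 639, 348 and 1370 calls against D0, and 21 between D3 and D2. Calls between D3 and D2 were 17 without the array of mouse 23 and 14 with it in D1, and leaving out each mouse gave 16 (without D3 mouse 35) to 83 (without D2 mouse 28), beside 0 to 58 between D2 and D1 (58 without D2 mouse 28). No paired analysis was possible because the replicate numbers are animal numbers that the groups do not share, and slide, which held all groups, was the block instead. Signal over background limits Stfa1, Stfa3 and Stfa2l1 most, since their reference signal lay near background. Their red signal in D0 was low as well, at 100 to 123.5 for Stfa1, 97 to 168 for Stfa3 and 105 to 128 for Stfa2l1. Stfa3 was well above background in 4 of 5 mice of D0 and of D2.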
